A study of Mus musculus with 6 samples.

Results

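The 10 genes described here belong to insulin signalling and glucose uptake, and include inhibitors and a transcription factor: Insr, Irs1, Irs2, Grb10, Grb14, Pik3r1, Akt2, Slc2a4, Foxo1 and Tbc1d4. They were chosen by gene name from the 55039 genes of the count table, and all 10 were among the 17296 genes that passed edgeR's filter on low counts. The tissue was epididymal white adipose tissue (eWAT), a visceral fat depot of male mice, from 3 tumor-bearing mice with cancer-associated cachexia (CAC) and from 3 control mice (CONT), with 1 mRNA library sequenced per mouse. All mice were male C57BL/6, without a transgene or deletion named in the labels, and were 6 to 7 weeks old at assignment. CAC mice carried a subcutaneous graft of LLC cells, a Lewis lung carcinoma line, and CONT mice received the PBS vehicle alone. The tissue was collected 28 days later. The comparison asks how the insulin pathway differs, at the level of mRNA, between fat of tumor-bearing and of control mice.

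In an adipocyte, insulin binds its receptor INSR, a tyrosine kinase that phosphorylates the docking proteins IRS1 and IRS2. These recruit PI 3-kinase, whose regulatory subunit is encoded by Pik3r1, and the lipid it makes leads to activation of the kinase AKT2. AKT2 phosphorylates TBC1D4, a brake on vesicle traffic, which lets vesicles that hold the glucose transporter GLUT4 (Slc2a4) reach the cell surface. AKT also phosphorylates the transcription factor FOXO1, which then leaves the nucleus. GRB10 and GRB14 are adaptors that bind the activated receptor and inhibit its kinase. Much of this control works through phosphorylation and protein location, which mRNA levels do not measure.

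The libraries held from 15713794 to 25926425 counts, with the 3 CAC libraries deeper than all controls. On the CPM scale used below (edgeR's counts scaled to the TMM-adjusted library size), 1 CPM stood for 11.2 to 26.5 reads. CONT replicate 1 stood apart: 30.2% of its counts were on mitochondrial genes, against 3.89% to 5.04% in the other 5 libraries. Its genes with transcripts longer than 6 kb were also low against the mean of CONT replicates 2 and 3 (median log2 ratio −0.39 over 3535 genes), whereas those shorter than 2 kb were high (0.72 over 1328 genes). A number of results are therefore also given below without this library. Adipocyte markers were present in every library. Summed over 12 of them, replicates 1 to 3 were at 55827, 24096 and 27994 CPM in CONT and at 47115, 33552 and 35736 CPM in CAC. CONT replicates 2 and 3 were thus below every CAC library. Of the 12 genes, 8 were lower and 4 higher in CAC (median log2 fold change −0.24), with 0 at an unadjusted p under 0.05. Without CONT replicate 1 the median was 0.009, with 1 gene higher at that p. Epididymis markers summed to 10084 CPM in CONT replicate 3, to 215 CPM in CONT replicate 1 and to at most 2.76 CPM in the other 4 libraries. Markers of B and plasma cells summed to 55.6 to 95.9 CPM in CONT and to 9.82 to 21.6 CPM in CAC. Of these 8 genes 4 had an unadjusted p under 0.05, all lower in CAC, and 2 were lower at that level without CONT replicate 1. Over all tested genes, 6.95% were lower at that level with all 6 libraries. Of 8 progenitor and fibroblast markers 4 were lower at that level, with sums of 1910 to 2449 CPM in CONT and 1430 to 2029 CPM in CAC. Without CONT replicate 1, 4 were lower and 1 was higher. Of 10 macrophage markers 9 were lower in CAC and 1 higher (median log2 fold change −0.54, 1 of each at that level), and without CONT replicate 1 the median was −0.91 with 5 lower at that level. Their sums were 738, 2031 and 1993 CPM in CONT and 1495, 908 and 1108 CPM in CAC. None of the marker genes was at 0 in every library. The part of other cell types in the differences below was not tested, and in bulk tissue fewer cells of a type and less RNA per cell cannot be told apart.

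Of the 10 genes, 5 were higher in all 3 CAC libraries than in any CONT library (Insr, Irs1, Irs2, Grb10 and Foxo1) and 1 was lower (Grb14). The groups of Pik3r1, Akt2, Slc2a4 and Tbc1d4 overlapped. Over all tested genes, 22.5% had groups that did not overlap, 11.8% with CAC higher and 10.7% with CAC lower. The same 6 genes had an unadjusted p under 0.05 in edgeR's quasi-likelihood test, a level reached by 13.3% of all genes. After Benjamini-Hochberg adjustment none of the 10 passed, and edgeR called 0 of 17296 genes (0%) at an adjusted p under 0.05, with 2294 at an unadjusted p under 0.05. DESeq2, the tool of the study, called 965 of 17160 genes (5.62%), and among them were Insr, Irs2, Grb10, Foxo1 and Grb14. No member therefore passed the main test, and the values below are differences between these libraries read against their spread.

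**Figure D1:**
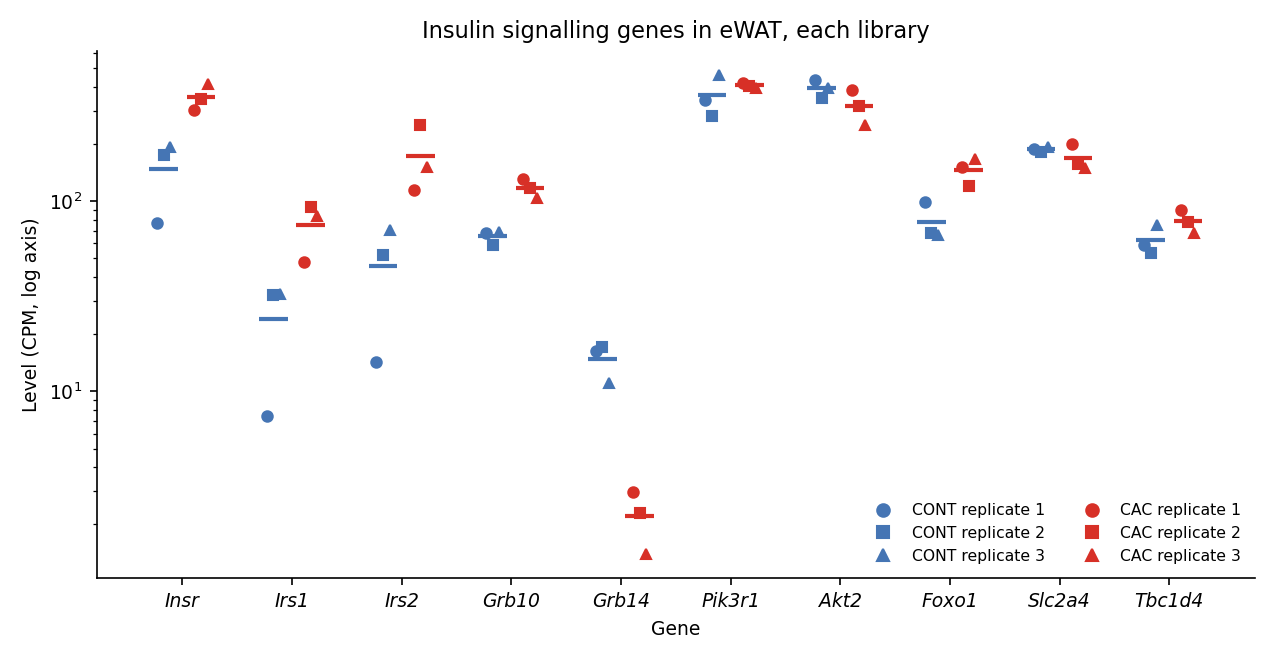
Level of each of the 10 genes in every library, in CPM on a log axis, with CONT in blue, CAC in red, a symbol for each replicate number and a bar at the group mean. The CAC points lie above all CONT points for Insr, Irs1, Irs2, Grb10 and Foxo1 and below them for Grb14, and the groups overlap for the other 4 genes.

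Insr, the receptor gene, lies on chromosome 8 from 3122061 to 3279617 (minus strand, GRCm38, as are all coordinates here). Its level was 77.0, 174 and 194 CPM in CONT replicates 1 to 3 and 302, 346 and 412 CPM in CAC replicates 1 to 3. The lowest CAC library was above the highest CONT library, and CONT replicate 1 was well below the other control libraries. The mean went from 148 ± 62.6 CPM (SD, n = 3) to 354 ± 55.7 CPM (SD, n = 3). Insr had a log2 fold change of 1.25 (SE 0.38, edgeR adjusted p = 0.284). Without CONT replicate 1 it was 0.95, so the direction did not rest on that library. The transcript length behind the Insr counts is 13746 bases, the longest of the 10. Its log2 ratio of CONT replicate 1 to CONT replicates 2 and 3 was −1.25, against the median of −0.39 given above for long transcripts.

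Irs1 and Irs2, which encode the docking proteins between the receptor and PI 3-kinase, showed the largest differences among the genes that were higher in CAC. Irs1 lies on chromosome 1 from 82233101 to 82291416 and Irs2 on chromosome 8 from 10984681 to 11008458, both on the minus strand. Of the 8 member genes with a window in the RefSeq promoter table (250 bases before to 50 bases after a start, 13 windows), only these held either of the motifs named next. The FOXO motif searched, on both strands, was CAAAACA, the core of the insulin response element. The E-box searched was the palindrome CACGTG, read by basic helix-loop-helix factors. The stretches from 130 to 11 bases before the RefSeq start are shown because both genes carry the pair close together. They are read 5′ to 3′ on the minus strand of GRCm38.p6, at chr1:82291450-82291569 for Irs1 and at chr8:11008940-11009059 for Irs2, with both motifs in capitals, and no exon of the GENCODE annotation overlaps them:
Irs1: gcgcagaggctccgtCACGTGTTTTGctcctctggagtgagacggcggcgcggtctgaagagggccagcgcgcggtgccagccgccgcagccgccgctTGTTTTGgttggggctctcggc
Irs2: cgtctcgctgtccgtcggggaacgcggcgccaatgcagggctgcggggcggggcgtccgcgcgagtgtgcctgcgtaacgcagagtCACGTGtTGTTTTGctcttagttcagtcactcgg
The FOXO motif appears in both as its reverse complement, TGTTTTG. In Irs1 the E-box and the first FOXO motif share 2 letters, and another FOXO motif follows nearer to the start. In Irs2 a single base separates the pair. Over all 32851 windows of the table, 6.28% held the FOXO motif, 7.15% held the E-box and 0.408% (134 windows) held both. Another forkhead motif, GTAAACA, was in 3.65% of all windows and in 0 of the 13. These matches describe letters in a window, and binding was not measured.

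The Irs1 level was 7.4, 32.3 and 32.6 CPM in CONT replicates 1 to 3, and 48.0, 93.4 and 83.4 CPM in CAC replicates 1 to 3. CONT replicate 1 was far below the other 5 libraries and CAC replicate 1 was the lowest of its group, but the groups did not overlap. Irs1 had a log2 fold change of 1.63 (SE 0.57, edgeR adjusted p = 0.322) with all 6 libraries and 1.22 without CONT replicate 1. Irs1 was the only one of the 6 that DESeq2 did not call with all libraries (adjusted p = 0.0613), and DESeq2 without CONT replicate 1 gave an adjusted p of 0.00821, when 11.0% of all genes were called. Over 19 alternatives the adjusted p of Irs1 ran from that value to 0.705. In edgeR its unadjusted p was no longer under 0.05 when CAC replicate 2 or CAC replicate 3 was left out.

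The Irs2 level was 14.3, 52.1 and 71.0 CPM in CONT and 114, 251 and 152 CPM in CAC, in the order of the replicates. All 3 CAC libraries were above every control, with CAC replicate 2 the highest. The mean was 45.8 ± 28.9 CPM in CONT and 173 ± 70.8 CPM in CAC (SD, n = 3 each), a ratio of 3.77. For Irs2 the log2 fold change was 1.91 (SE 0.60, edgeR adjusted p = 0.291) and 1.5 without CONT replicate 1. Without CAC replicate 2 it was 1.55 and its unadjusted p was no longer under 0.05. In CONT replicate 1, Irs1 and Irs2 were low by like amounts against CONT replicates 2 and 3 (log2 ratios −2.12 and −2.08). Both transcripts are longer than 6 kb (9144 and 6323 bases), a class that was low in CONT replicate 1, though by less. With an offset for transcript length and GC content, chosen after the data were seen, their log2 fold changes were 1.52 and 1.95.

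The receptor inhibitors went in opposite directions, Grb10 higher and Grb14 lower in CAC. Grb10, on chromosome 11 from 11930508 to 12038683 (minus strand), was at 67.9, 59.1 and 69.2 CPM in CONT and at 132, 118 and 104 CPM in CAC. The groups did not overlap and each was narrow, so that Grb10 had the smallest unadjusted p of the 5 higher genes. Its log2 fold change was 0.85 (SE 0.18, edgeR adjusted p = 0.226). CONT replicate 1 did not stand apart for this gene (log2 ratio to CONT replicates 2 and 3 of 0.09), and the value without it was 0.89. DESeq2 gave an adjusted p of 0.00111, and over the 19 alternatives it ran from 0.000111 to 0.684.

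Grb14, on chromosome 2 from 64912476 to 65024987 (minus strand), had the largest difference of the 10 genes. It was at 16.2, 17.1 and 11.1 CPM in CONT (182, 391 and 246 counts) and at 3.0, 2.3 and 1.4 CPM in CAC (72, 57 and 37 counts). Every CAC library was far below every CONT library, and CAC replicate 3 was the lowest of all. The CAC level was 0.150 of the CONT level, with means of 2.22 ± 0.783 CPM and 14.8 ± 3.24 CPM (SD, n = 3 each). Its log2 fold change was −2.74 (SE 0.40, edgeR adjusted p = 0.177), and Grb14 had rank 29 by p among the 17296 genes. It ran from −2.95 to −2.48 when each library was left out in turn, and its adjusted p lay between 2.8e-08 (DESeq2) and 0.684 over the 19 alternatives. On the log2(FPKM + 1) scale the change was −1.08, since that scale understates the change of a gene at this low level.

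Pik3r1 and Akt2, the PI 3-kinase subunit and the kinase downstream of it, did not separate the groups. Pik3r1 (chromosome 13, from 101680563 to 101768217, minus strand) was at 340, 281 and 463 CPM in CONT and 419, 405 and 395 CPM in CAC. The CAC libraries lay inside the range of the controls, close to one another, and the log2 fold change was 0.17 (SE 0.26, edgeR adjusted p = 0.807). It ran from 0.02 without CONT replicate 2 to 0.40 without CONT replicate 3, and its sign turned with an offset for length and GC content (−0.08). Akt2 (chromosome 7, from 27591552 to 27640826, plus strand) was at 435, 347 and 396 CPM in CONT and 384, 315 and 252 CPM in CAC. Its lowest values were in CAC replicates 2 and 3, but CAC replicate 1 was above the lowest control. Akt2 had a log2 fold change of −0.31 (SE 0.25, edgeR adjusted p = 0.604), which was −0.16 without CAC replicate 3 and −0.43 without CAC replicate 1.

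Foxo1, which encodes the transcription factor that AKT keeps out of the nucleus, lies on chromosome 3 from 52268336 to 52353221 (plus strand). Its level was 99.7, 67.8 and 66.8 CPM in CONT and 151, 120 and 167 CPM in CAC. Here CONT replicate 1 was the highest control, not the lowest as for Insr, Irs1 and Irs2, and the groups did not overlap. Foxo1 had a log2 fold change of 0.90 (SE 0.24, edgeR adjusted p = 0.266) with all libraries and 1.13 without CONT replicate 1. With an offset for transcript length and GC content it was 0.53 and its unadjusted p was no longer under 0.05, and that offset moved Foxo1 by more than any other of the 6. The highest adjusted p over the 19 alternatives tried was 0.684 for Foxo1, and the lowest was 2.4e-06 in DESeq2 without CONT replicate 1.

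Slc2a4 encodes GLUT4, the transporter that insulin brings to the surface of adipocytes, and lies on chromosome 11 from 69942539 to 69948188 (minus strand). It was at 189, 181 and 194 CPM in CONT and at 199, 157 and 149 CPM in CAC. The controls were nearly equal and the CAC libraries lay on both sides of them. The log2 fold change was −0.16 (SE 0.20, edgeR adjusted p = 0.758), and −0.07 without CAC replicate 3 and −0.25 without CAC replicate 1. Tbc1d4, which encodes the AKT substrate that holds GLUT4 vesicles inside the cell, lies on chromosome 14 from 101442360 to 101609191 (minus strand). It was at 58.7, 53.2 and 75.2 CPM in CONT and at 89.9, 77.5 and 68.5 CPM in CAC. CAC replicate 3 was below CONT replicate 3, and the log2 fold change was 0.33 (SE 0.21, edgeR adjusted p = 0.506), with 0.51 without CONT replicate 3 and 0.14 with the offset for length and GC content. For these genes a difference was not detectable with 3 libraries in each group, which does not show that the levels were equal.

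**Figure D2:**
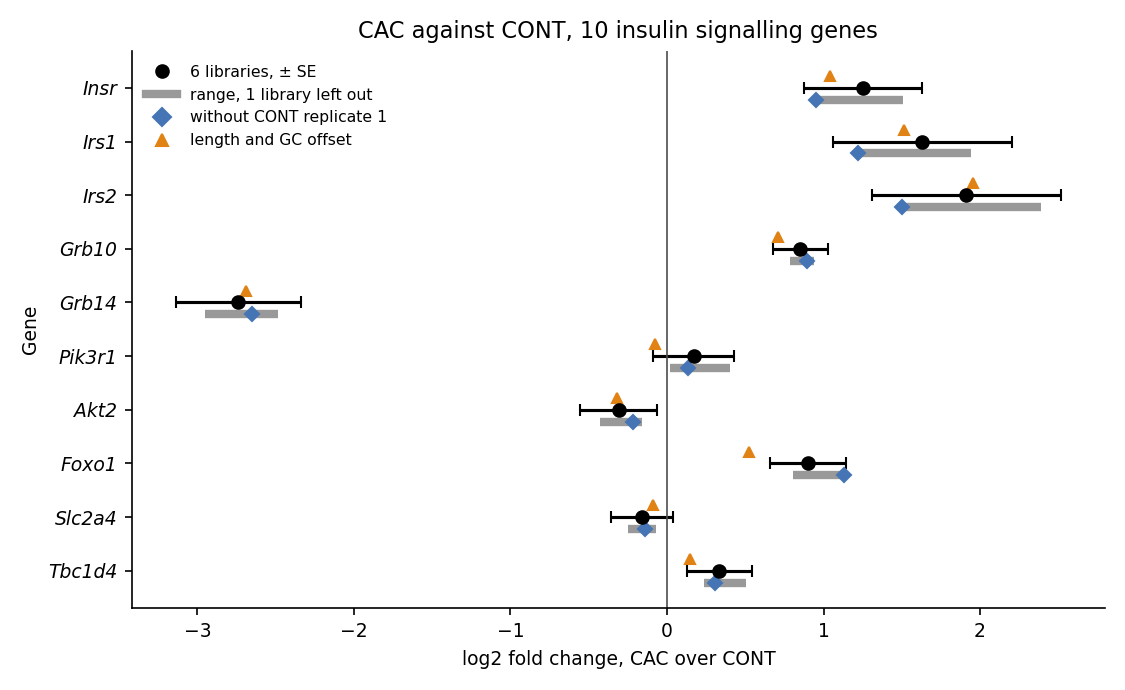
Log2 fold change of CAC over CONT for the 10 genes (x axis), with the value and SE from edgeR on all 6 libraries in black, the range with 1 library left out in grey, the value without CONT replicate 1 as a blue diamond and the value with an offset for transcript length and GC content as an orange triangle. Grb14 is the lowest at −2.74, and every value of Insr, Irs1, Irs2, Grb10 and Foxo1 is above 0.

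Ratios of genes within a library do not depend on how libraries are scaled, and 8 such ratios to paralogs or partners were compared as log2 ratios of counts per kilobase. In 4 of the 8 the groups did not overlap, each with an exact two-sided permutation p of 0.1 (0.2 after Benjamini-Hochberg adjustment over the 8), and 0.1 is the smallest p that 3 against 3 libraries allow. The ratio of Grb14 to its paralog Grb10 was −1.72, −1.45 and −2.30 in CONT and −5.13, −5.33 and −5.87 in CAC. Grb10 was thus the more abundant of the pair in every library, and the difference of group means was −3.62 on the log2 scale. The ratio of Grb14 to Insr went the same way, with −1.31, −2.41 and −3.19 in CONT against −5.73, −6.29 and −7.25 in CAC. CONT replicate 1, with its low Insr, had the highest value of this ratio.

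The ratio of Slc2a4 to Slc2a1 compares the insulin-regulated transporter with GLUT1, which serves basal glucose entry. It was 3.19, 3.07 and 3.24 in CONT and 2.55, 2.04 and 1.65 in CAC, a difference of −1.09 on the log2 scale. Slc2a4 remained the more abundant transcript in every library, and the shift came with higher Slc2a1, which was at 20.9, 21.7 and 20.7 CPM in CONT and 34.4, 38.5 and 47.9 CPM in CAC (log2 fold change 0.93, SE 0.19, edgeR adjusted p = 0.224). The ratio of Akt2 to Akt1, the more widely expressed AKT kinase, was 0.54, 0.58 and 0.55 in CONT and 0.34, −0.47 and −0.79 in CAC. Akt2 was thus above Akt1 per kilobase in all controls and below it in CAC replicates 2 and 3. Akt1 itself was at 172, 133 and 155 CPM in CONT and 175, 250 and 251 CPM in CAC, with CAC replicate 1 barely above the highest control.

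The other 4 ratios overlapped between the groups. Irs2 exceeded Irs1 in every library, by 1.22 to 1.65 in CONT and 1.40 to 1.96 in CAC on the log2 scale, and the difference of 0.26 was within the spread of the libraries (exact permutation p = 0.3). The ratio of Foxo1 to Foxo3, a related FOXO factor, differed by −0.09 (exact permutation p = 0.9), and Foxo3 was higher along with Foxo1 (log2 fold change 0.97, SE 0.27, edgeR adjusted p = 0.273). The sign of that ratio turned when CONT replicate 1 or CAC replicate 2 was left out. The ratio of Pik3r1 to the catalytic subunit Pik3ca differed by 0.32 and that of Tbc1d4 to its paralog Tbc1d1 by 0.66, with exact permutation p of 0.5 and 0.4. Both depended on single controls. Without CONT replicate 1 the difference for Tbc1d4 to Tbc1d1 was 1.12 and the groups were apart, and without CONT replicate 2 it was 0.34. For Pik3r1 to Pik3ca it was 0.04 without CONT replicate 1, and 0.62 with the groups apart without CONT replicate 3.

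**Figure D3:**
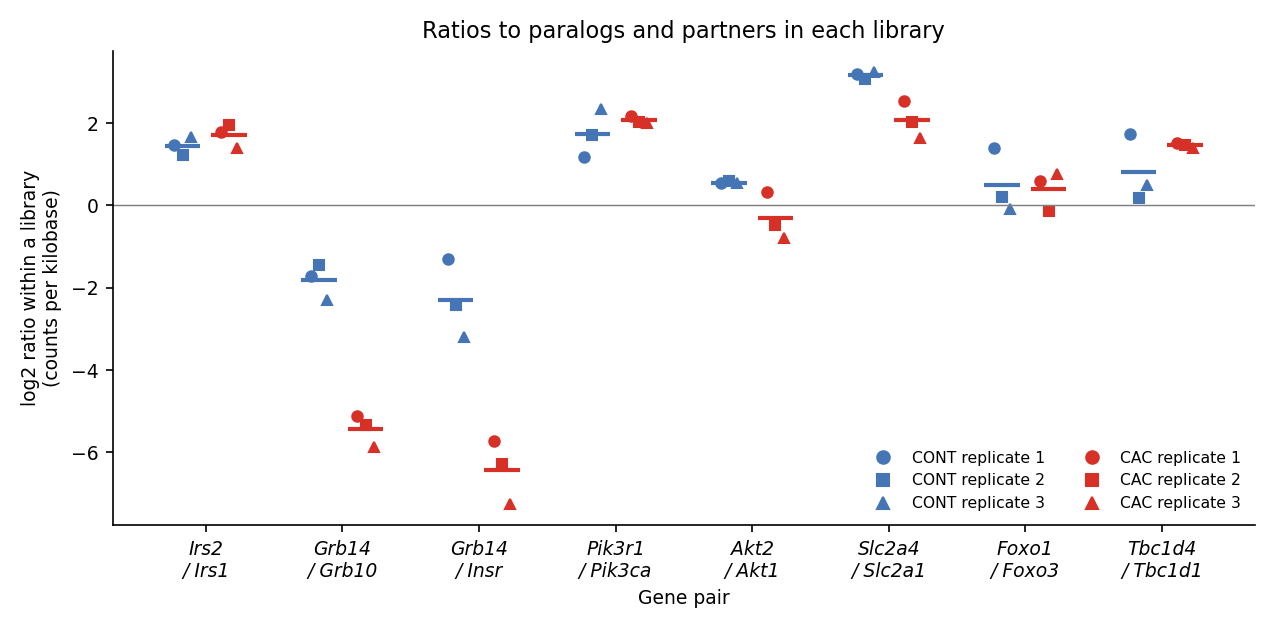
Log2 ratio of counts per kilobase of 8 gene pairs in each library (y axis), with CONT in blue, CAC in red, symbols by replicate number and bars at group means. The groups are apart for Grb14 to Grb10, Grb14 to Insr, Akt2 to Akt1 and Slc2a4 to Slc2a1, and overlap for the other 4 pairs.

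The members were also read relative to 4 adipocyte genes in the same library (mean log2 CPM of Adipoq, Plin1, Lipe and Cidec, which was 10.90, 10.72 and 10.93 in CONT and 11.50, 10.56 and 10.72 in CAC). On that scale Insr differed by 1.27, Irs2 by 2.05, Grb10 by 0.77 and Grb14 by −2.86, and the groups of these 4 genes did not overlap (exact permutation p = 0.1, 0.25 after adjustment over the 10). Irs1 (1.79) and Foxo1 (0.84) were higher by similar amounts as before, but their groups now overlapped, with exact permutation p of 0.3 and 0.2. The Insr groups were barely apart (CAC replicate 1 at −3.2646, CONT replicate 2 at −3.2732). Those of Foxo1 barely overlapped (CAC replicate 1 at −4.2648, CONT replicate 1 at −4.2639). The reference was highest in CAC replicate 1, which lowers every member in that library, and without it the groups of Irs1 (2.37) and Foxo1 (1.10) were apart. Without CONT replicate 1 the differences of Insr, Irs1 and Irs2 were smaller, at 0.83, 1.05 and 1.32. With Plin1 alone as the reference, the groups of Grb10 overlapped (1.19, exact permutation p = 0.2) and those of Irs1 did not (2.20, exact permutation p = 0.1). Slc2a4 differed by −0.25 and Akt2 by −0.40, and both turned positive when Plin1 alone was the reference (0.17 and 0.02). Without CAC replicate 2 they were at −0.38 and −0.59 with the groups apart, and without CAC replicate 1 at −0.09 and −0.26.

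The pathway around the members was described with lists of 165 genes in all, of which 160 were tested. Of these, 26 were higher and 13 lower in CAC at an unadjusted p under 0.05, against 6.31% and 6.95% of all genes, and none passed edgeR's adjustment. The lists include the members themselves. Of the 150 tested genes that are not members, 21 were higher and 12 lower at that p. Without CONT replicate 1, 29 of all pathway genes were higher and 20 lower (24 and 19 of those that are not members). The counts over all genes went from 1092 and 1202 to 1420 and 1612. The low-count filter was rerun for that fit, so the numbers of genes tested can differ from those above. Among receptors and adaptors, 15 of 17 genes were tested, and 4 were higher and 1 lower at this level. Of the 4, 3 were Insr, Irs1 and Irs2, and the other was Sh2b2, an adaptor that binds the activated receptor (log2 fold change 1.18, SE 0.23, edgeR adjusted p = 0.221). The median of the list was 0.10 against −0.06 over all genes, and without CONT replicate 1 it turned to −0.06, against −0.03 over all genes. Of 23 inhibitors of the receptor and of the PI 3-kinase to AKT step, 3 were higher and 3 lower, Grb10 and Grb14 among them. Without CONT replicate 1, 2 were higher and 4 lower. The 3 higher ones with all 6 libraries include a gene that is no direct inhibitor. With a p between those of Grb14 and Grb10 came that gene, Zbtb16, a transcription factor known to respond to glucocorticoids (log2 fold change 2.17, SE 0.43, edgeR adjusted p = 0.223). Of 23 PI 3-kinase and AKT genes 1 was higher, Sgk1, a kinase related to AKT (1.53, SE 0.55), although its groups overlapped. Without CONT replicate 1, 2 genes of this list were higher and 3 lower. Pik3c2b, a class II PI 3-kinase, was at −0.59 (SE 0.25) and above an unadjusted p of 0.05.

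Around Slc2a4, 29 genes of the GLUT4 vesicle and its exocytosis were tested, and 2 were higher and 1 lower at an unadjusted p under 0.05, with a median of −0.08 (2 higher and 3 lower without CONT replicate 1). Over all genes 6.31% were higher and 6.95% lower at that p, or 1420 and 1612 genes without CONT replicate 1. Doc2b, a calcium sensor of vesicle fusion in insulin-stimulated GLUT4 exocytosis, had the largest difference of that list (log2 fold change 2.93, SE 0.40, edgeR adjusted p = 0.149). Lrp1, a receptor carried in GLUT4 vesicles, was also higher (1.46, SE 0.54) and Rab4a, a small GTPase of endosomes, was lower (−0.92, SE 0.29). Of 16 genes of glucose transport and hexose entry, Slc2a1 and Txnip were higher and Slc2a13 was lower at this level, whereas without CONT replicate 1 the count was 1 higher and 0 lower. Txnip encodes a protein that restrains glucose uptake, and its groups overlapped (1.02, SE 0.40). Slc2a4 itself was near the median of both lists.

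Foxo1 was read within a list of 13 FOXO factors and partners, itself among them, and beside genes known as FOXO targets in other settings. Both lists were chosen with earlier results of these data known. Of the 13, 2 were higher at an unadjusted p under 0.05, Foxo1 and Foxo3, and without CONT replicate 1 the count was 4, when 1420 of all genes were higher. Cited2, a transcriptional coregulator and the next gene of that list by p, had overlapping groups (0.71, SE 0.30). Of 32 target genes 30 were tested (Igfbp1 and Trim63 were too low), 26 were higher and 4 lower in CAC, and the median log2 fold change was 0.84 against −0.06 over all genes. At an unadjusted p under 0.05, 13 were higher and 2 lower, and DESeq2 called 11 higher and 0 lower at an adjusted p under 0.05. Over all genes these counts were 1092 and 1202 of 17296 with edgeR, and 553 and 412 of 17160 with DESeq2. Insr and Irs2 are themselves 2 of the higher targets. Pdk4, the kinase that shuts down pyruvate dehydrogenase in fasting, was at 24.4, 18.7 and 21.2 CPM in CONT and at 144, 198 and 99.3 CPM in CAC (log2 fold change 2.78, SE 0.30, edgeR adjusted p = 0.127). Pdk4 had rank 6 by p in the whole table, and it shared its adjusted p, the smallest there, with other genes. Klf15, a transcription factor of fasting metabolism, and Bnip3, a mitophagy receptor, were higher by 1.21 (SE 0.18) and 1.35 (SE 0.25). The 2 lower genes, Bcl6 and Gadd45a, were picked out after their values were seen, and their log2 fold changes of −1.51 and −1.40 were −0.52 and −0.58 without CONT replicate 1. Several of these targets also respond to glucocorticoids or other fasting signals, and which regulator moved with them was not tested.

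Genes that insulin is known to raise in fat went the other way as a list, with 16 of 20 tested genes lower in CAC, 4 higher and a median log2 fold change of −0.60. That list was also chosen with earlier results of these data known. At an unadjusted p under 0.05, 5 were lower and 2 higher. Over all 17296 genes, 9353 were lower and 7943 higher with a median of −0.06, and 1202 were lower and 1092 higher at that p. The 3 with the smallest p were the fatty acid elongase Elovl6 (−2.31, SE 0.44), Insig1, an insulin-responsive regulator of SREBP processing (−1.22, SE 0.27), and the malic enzyme Me1 (−1.03, SE 0.32), with edgeR adjusted p of 0.215, 0.228 and 0.288. Slc2a4, also a member of this list, was among the genes with the smallest differences in it. The 2 higher genes were Gpam, of triglyceride synthesis, and Gys1, the glycogen synthase (1.99, SE 0.82, and 0.55, SE 0.20), named after their values were seen.

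**Figure D4:**
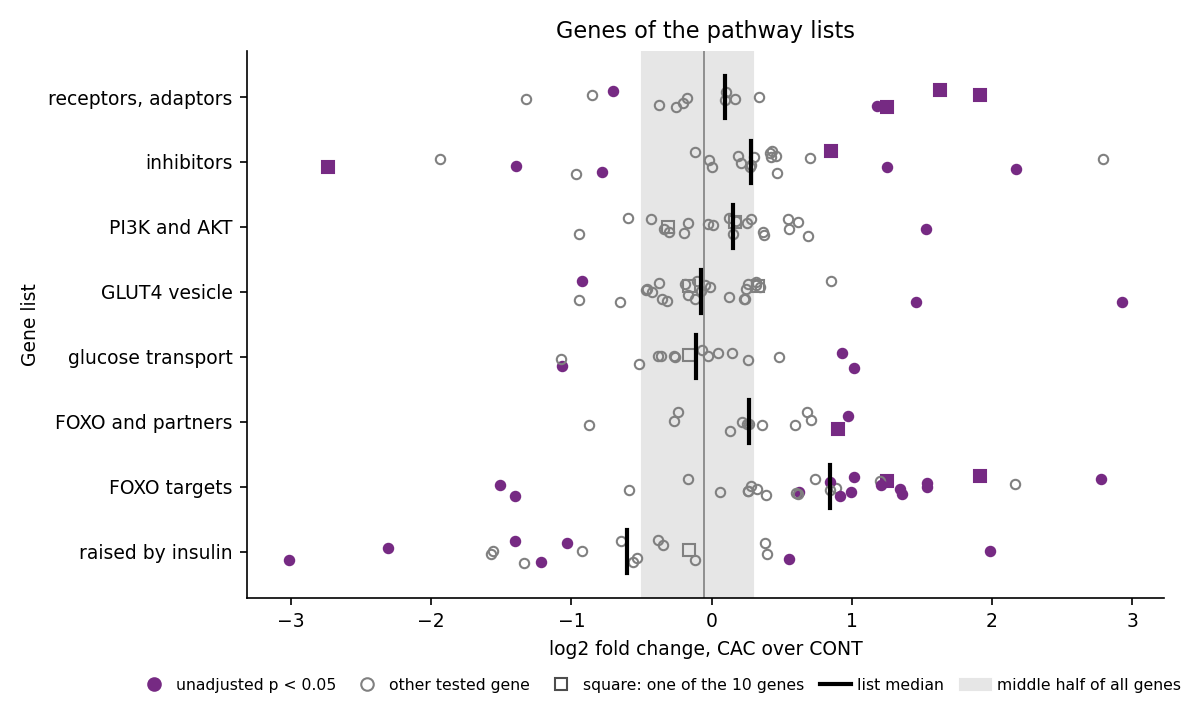
Log2 fold change of CAC over CONT (x axis) for each tested gene of 8 pathway lists, filled where the unadjusted p was under 0.05, with squares for the 10 genes, a black bar at each list's median and the interquartile range of all genes in grey. The median is 0.84 for FOXO targets and −0.60 for genes raised by insulin, and those of the other 6 lists lie within the grey band.

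**Figure D5:**
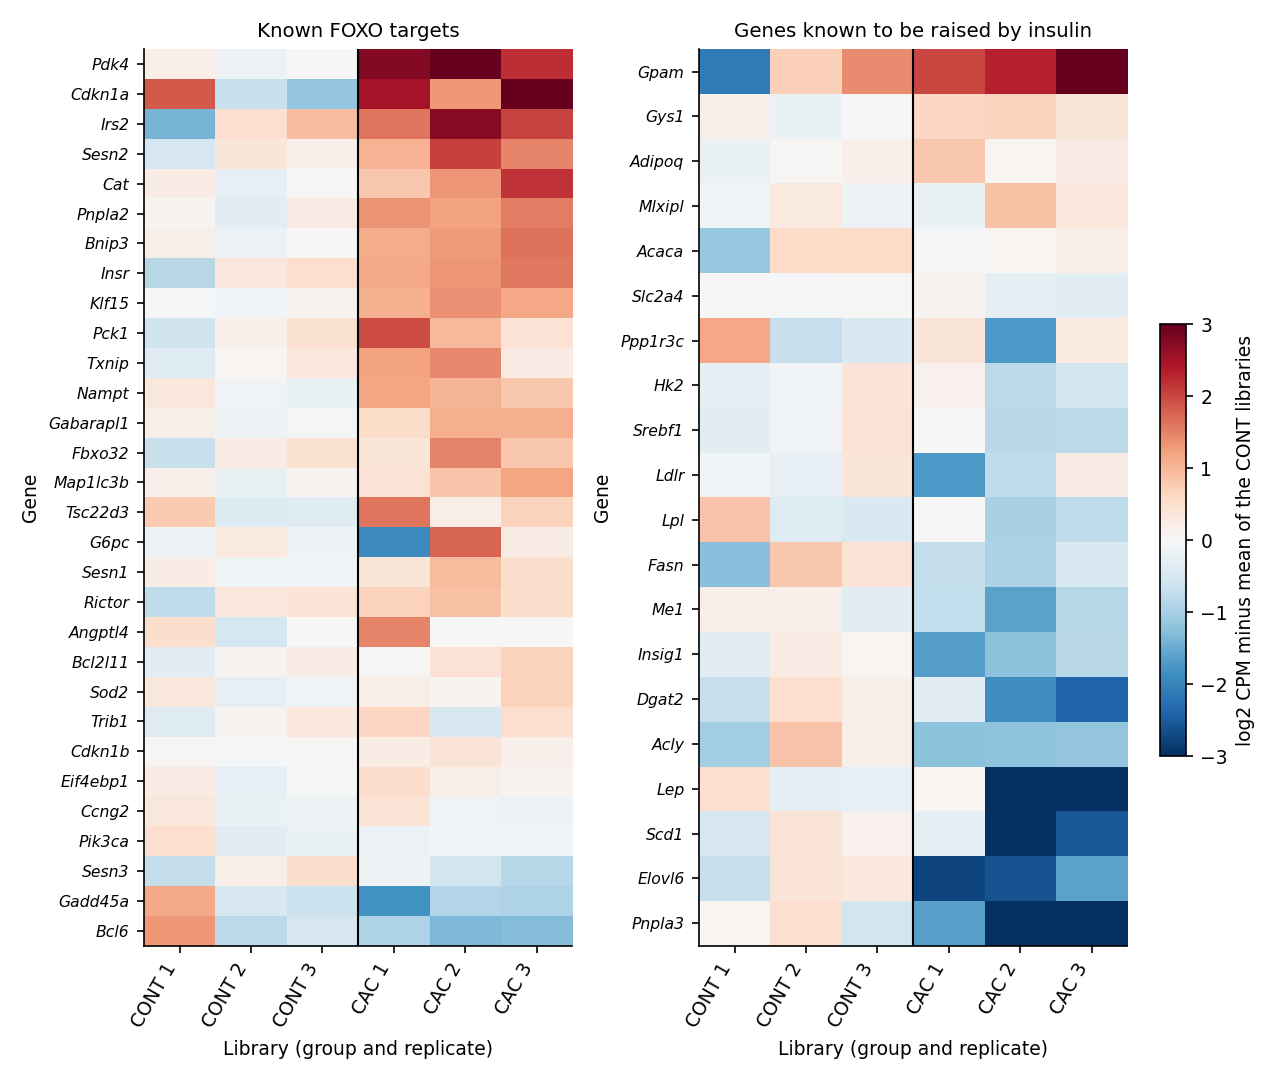
Log2 CPM of each known FOXO target and of each gene known to be raised by insulin, minus its mean in the CONT libraries, in all 6 libraries, with the colour scale held at −3 and 3. Pdk4, Bnip3 and Klf15 are above the control mean in every CAC library, and Elovl6, Insig1 and Me1 are below it.

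Ordered by level per transcript length (deposited FPKM, median over 6 libraries), the 10 genes ran from Slc2a4 (42.9), Akt2 (41.6) and Pik3r1 (32.3) through Insr (14.7), Irs2 (11.9), Foxo1 (10.3), Grb10 (7.74) and Tbc1d4 (7.57) to Irs1 (3.59) and Grb14 (0.791). Neighbours were told apart in all 6 libraries only for Pik3r1 above Insr and for Foxo1 above Grb10. Grb10 was above Tbc1d4 in the 3 CAC libraries and below it in the 3 CONT libraries, and Tbc1d4 was above Irs1 in 4 of the 6. Grb14 was below Irs1 in 5 of the 6, the exception being CONT replicate 1 with its low Irs1. The order was nearly the same within each group. Among the controls, Akt2 (median FPKM 44.6) and Slc2a4 (44.2) led and Grb14 (1.83) was last, and in CAC Slc2a4 (36.6) and Akt2 (35.9) led and Grb14 (0.260) was last. Insr and Irs2 came nearer to the top 3 genes in CAC, with medians of 20.4 and 19.6 FPKM against 10.1 and 6.57 FPKM in CONT.

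The genes whose profile over the 6 libraries was most like that of Grb10 were Sowahc, 4930481A15Rik and Rad21, with a root mean square difference of centred log2 CPM of 0.0595, 0.0807 and 0.0965. For Grb14 they were Arsi, Fxyd2 and Pcbd1, with differences of 0.168, 0.227 and 0.286. The nearest genes of Grb14 were farther away than those of Grb10, whose profile spans a smaller range. These are the closest of 17296 profiles over 6 libraries.

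Genes that overlap the members on the genome held few reads. The most was 60 reads over 6 libraries for Gm36638, which overlaps Pik3r1, against 51209 reads of Pik3r1. These are reads assigned to the overlapping gene, and any reads left unassigned in an overlap are not among them. How far the member counts depend on the assignment of such reads was therefore not tested. Whether counting used the strand is not given in the sources used here.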

How the data were processed

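The authors aligned cleaned reads to the mouse genome (Ensembl release named in their methods) and counted reads per gene. The submitters' processing notes name HISAT2 2.0.5 and featureCounts 1.5.0-p3. The deposited counts are raw integers, 1 value for each gene and library. The deposited FPKM values divide the same counts by gene length and a factor for each library, which is not the total of its counts. Gene coordinates are those of the table, on GRCm38, and promoter windows are RefSeq's for GRCm38.p6.

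Counts of 3 CAC and 3 CONT libraries, grouped by the sample labels, were tested in R 4.3.3 with edgeR 4.0.16 (quasi-likelihood, robust estimation, TMM scaling, its default low-count filter, condition as the only term) on the whole table, with Benjamini-Hochberg adjustment over 17296 genes. Calls used an adjusted p under 0.05. CPM and log2 CPM (prior count 2) are edgeR's. Alternatives were other scalings and filters, DESeq2 1.42.0, limma 3.58.1 (voom with quality weights, and log2(FPKM + 1) or log2(FPKM + 0.1) over genes with at least 0.5 FPKM in 3 libraries), the replicate number as a block, and each library left out. Added after the data were seen were an offset for length and GC and a DESeq2 run without CONT replicate 1. Within-library ratios used counts per kilobase (offset 0.5) and exact two-sided permutation tests. The edgeR step was tested on simulated data. No 2 libraries were copies. Each library is 1 mouse, and the common dispersion was 0.2655, which far exceeds counting error at this depth.

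The members and gene lists were chosen with earlier results of these data known. Named genes are the 10 members, the 3 genes with the smallest p in each pathway list, the ratio partners, the 4 adipocyte reference genes, and the 3 genes nearest in profile to the highest-ranked higher and lower member. Bcl6, Gadd45a, Gpam, Gys1, Lep, Pck1, the untested Igfbp1 and Trim63 and the overlapping gene Gm36638 fall outside this rule and were named after their values were seen. Marker lists not described further had these summed levels, in CPM over CONT and CAC: T cell 13.0 to 20.1 and 9.67 to 14.2, endothelial 1362 to 2506 and 1873 to 1940, mesothelial 199 to 208 and 89.9 to 250, skeletal muscle 8.37 to 46.5 and 11.0 to 48.2. Samples of other tissues and of patients were not analysed here.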

Additional observations from a re-analysis of the deposited data

How the results depend on the processing

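The 6 members with groups apart kept their direction under all 19 alternatives, and so did Akt2, Slc2a4 and Tbc1d4, whereas Pik3r1 turned to −0.0766 with the offset for length and GC content. With that offset the number of members with groups apart was 5. It was 7 without CONT replicate 2 or CAC replicate 3, 8 without CONT replicate 3 or CAC replicate 1, and 6 otherwise. edgeR called 0 genes at an adjusted p under 0.05. The count was 965 with DESeq2, 2102 with DESeq2 when CONT replicate 1 was left out, 956 with voom and quality weights, 5 with log2(FPKM + 1), 6 with log2(FPKM + 0.1) and 1 with the replicate number as a block. Insr, Irs2, Grb10, Grb14 and Foxo1 each passed in 3 of the 19 alternatives, Irs1 in 2 and the other 4 in 0. The count at an unadjusted p under 0.05, 2294 in all, was 4920 with voom, 4453 with DESeq2 without CONT replicate 1, and with 1 library left out ranged from 1384 (CAC replicate 2 left out) to 3032 (CONT replicate 1 left out). Among pathway genes it was 39, and 69 with voom and 66 with DESeq2 without CONT replicate 1. The cause was not tested. Leaving out 1 library moved the difference in the Foxo1 to Foxo3 ratio from −0.39 to 0.35, and that of Pik3r1 relative to adipocyte markers from −0.056 to 0.39. The Irs2 to Irs1, Pik3r1 to Pik3ca and Tbc1d4 to Tbc1d1 ratios ranged from 0.14 to 0.42, 0.04 to 0.62 and 0.34 to 1.12, and Tbc1d4 relative to adipocyte markers from 0.09 to 0.45. With Plin1 alone as reference, Akt2 was at 0.016 and Slc2a4 at 0.17. The replicate numbers did not pair the libraries (correlations of same-numbered libraries 0.05, 0.02 and −0.15), and with the replicate block 1992 genes and 6 members had an unadjusted p under 0.05. That level was lost by Irs1 without CAC replicate 2 or 3, by Irs2 without CAC replicate 2 and by Foxo1 with the offset (log2 fold changes 1.46, 1.56, 1.55 and 0.53). The fewest counts of a member in CAC were those of Grb14, at 37 to 72.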

Other observations

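Of the 6 members whose groups did not overlap, CAC replicate 1 was the CAC library nearest to the controls for 4 (Insr, Irs1, Irs2 and Grb14), CAC replicate 3 for Grb10 and CAC replicate 2 for Foxo1. Leptin mRNA (Lep), which insulin is known to raise in fat and which was picked out after its values were seen, was at 697, 409 and 414 CPM in CONT and at 512, 4.0 and 0.415 CPM in CAC. The same library was thus at the level of the controls for Lep, whereas CAC replicates 2 and 3 were far below. Pck1, a FOXO target of glyceroneogenesis also picked out after its values were seen, was at 794, 1332 and 1652 CPM in CONT and at 4689, 2365 and 1619 CPM in CAC, highest in CAC replicate 1.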
